A study of Mus musculus with 11 samples.

Results

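Sox10, Foxd3, Erbb3, Ngfr, Gfra3, Fabp7 and Cdh19 are genes of Schwann cells and of the glial precursors that travel along nerves. They were chosen by symbol from what is known of these cells, with earlier results of these data known. All 7 were listed among the 16755 genes measured in maxillary molar tooth germs. Bulk RNA-seq of poly-A RNA was performed at embryonic day 14.5 (E14.5) in 4 wild-type (Cilk1+/+) libraries, 4 Cilk1-/- libraries and 3 Cilk1-/-;PCS1−MRCS1△/△ libraries, called the compound mutant here. Cilk1 codes for a kinase of the primary cilium, and its exon 6 was deleted with EIIa-Cre, which acts in the early embryo and the germ line, so the deletion is not limited to a cell type. The compound mutant carries the same Cilk1 deletion and also lacks 70 kb between PCS1 and MRCS1, a stretch that holds enhancers of Shh, and no group with the 70 kb deletion alone was analysed here. The wild-type and Cilk1-/- germs came from littermates, and each biological replicate pooled n = 6, without a statement of whether germs or embryos were counted. Values are log2(value + 1) of a normalised expression value made by the authors, probably FPKM, which is scaled to gene length and library size. Depth is unknown, so precision rests on the spread between libraries.

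Schwann cell precursors arise from the neural crest and accompany growing axons. They depend on neuregulin from the axon, which is received by Erbb3 together with Erbb2, and their identity is held by Sox10. Around a tooth germ at this stage, fibres of the trigeminal nerve and their glia lie in the mesenchyme next to the germ, and glia of this lineage can later give rise to cells of the tooth. In whole-germ RNA, fewer cells of a type and less RNA per cell cannot be told apart.

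The table lists Cilk1 under its older symbol Ick. Its log2 value lay between 3.45 and 3.60 in the 4 wild-type libraries, between 2.72 and 2.86 in the 4 Cilk1-/- libraries and between 2.60 and 2.67 in the 3 compound mutant libraries, so both mutants were separate from wild type. Same-numbered libraries of wild type and Cilk1-/- were not independent. Their deviations from the genotype means were correlated at between -0.892 and -0.741 over all genes, so results are also given with the replicate number as a block where that ends a call. Compound mutant replicate 1 stood apart from the other libraries on the first principal component, at 48.5 against -11.2 to 6.63, and was the highest of the 11 libraries for 22.9% of all genes. Each result that rests on this library is also given without it.

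At the wild-type level, the 7 genes spanned a wide range. Ngfr was the highest at 4.67 ± 0.123 on the log2 scale (SD, n = 4), above 81.3% of all listed genes. Erbb3 followed at 3.14 ± 0.0640, near the middle of all genes at the 52.2 percentile. Sox10 at 1.79 ± 0.0374, Fabp7 at 1.42 ± 0.169, Gfra3 at 1.20 ± 0.212, Foxd3 at 0.77 ± 0.158 and Cdh19 at 0.53 ± 0.0718 lay between the 32.4 and 15.1 percentiles. Neighbours in this order were separated in all 4 wild-type libraries, except Fabp7 and Gfra3, which were in this order in 3 of 4. The ranges of Fabp7 and Gfra3, and those of Foxd3 and Cdh19, overlapped. In Cilk1-/- libraries the order of Sox10 and Fabp7 was the opposite, with Fabp7 above Sox10 in 4 of 4, although their ranges overlapped. For the compound mutant, Fabp7 was above Sox10 in 2 of 3 libraries.

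Further markers of the lineage were also read, without a test of the glial label. Mbp, a myelin protein, was listed at 2.17 ± 0.0834 (SD, n = 4) in wild type, S100b at 1.69 ± 0.320, the ligand gene Dhh at 0.37 ± 0.140, and Egr2, a regulator of myelination, at 1.39 ± 0.273. None of these markers was at 0 in any library. Only 257 of the 16755 listed genes had a value below 0 in any library, so this cannot bear on the label. Ngfr differed from the other 6 members in its pattern over the libraries. With each gene centred and scaled, the correlation with the mean of the other members, Ngfr left out of that mean, was between 0.779 (Fabp7) and 0.932 (Erbb3) for those genes over 11 libraries, and -0.679 for Ngfr. Much of this likeness lay in compound mutant replicate 1. Without it, over 10 libraries, the same values were between 0.374 (Sox10) and 0.677 (Foxd3), and -0.713 for Ngfr. These correlations are descriptions over libraries that share genotypes and a scaling. Ngfr is also made by sensory neurons and by mesenchyme of neural crest origin, so its level in a whole germ is not specific to glia.

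**Figure D1:**
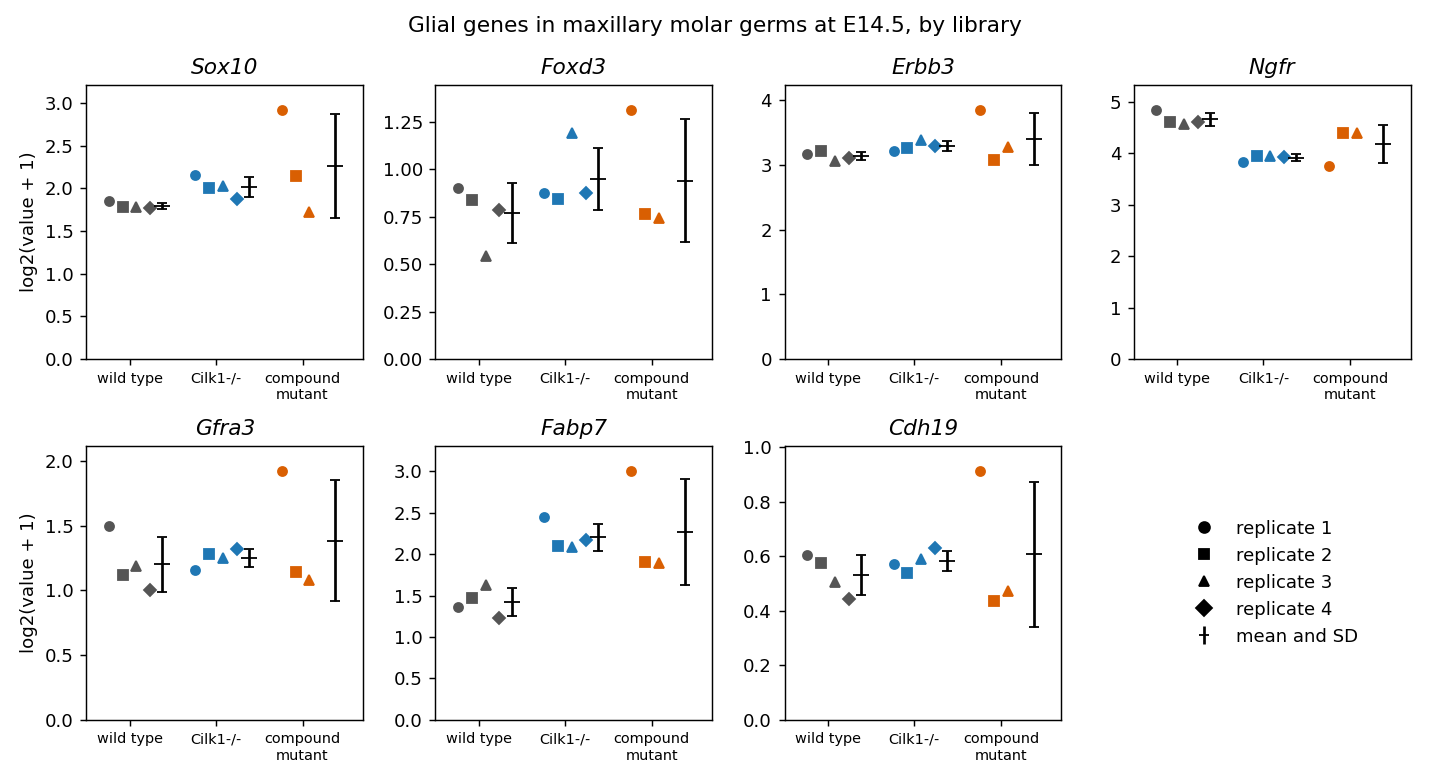
Log2(value + 1) of the 7 genes (vertical axes, from 0) in each of 11 libraries, grouped by genotype, with marker shapes for the replicate number and the mean with its SD beside each group. Ngfr lies between 4.58 and 4.85 in wild type and between 3.83 and 3.96 in Cilk1-/-, Fabp7 lies between 1.23 and 1.63 and between 2.09 and 2.45, and compound mutant replicate 1 is the highest library for every gene except Ngfr.

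Ngfr, the low-affinity neurotrophin receptor p75NTR, was the member that fell in Cilk1-/- molar germs. The gene lies on mouse chromosome 11, at 95568818 to 95587735 on the minus strand of GRCm38, with 6 exons. Its log2 values were 4.85, 4.62, 4.58 and 4.61 in wild-type replicates 1 to 4 and 3.83, 3.96, 3.95 and 3.93 in Cilk1-/- replicates 1 to 4. The genotypes did not overlap, and the lowest wild-type library was above the highest Cilk1-/- library. The fall was -0.75 on the log2(value + 1) scale (SE 0.127, 95% interval -1.03 to -0.47), or 0.596 times the wild-type level. This passed the call used throughout, an adjusted p under 0.05 with a fold change of at least 1.5, in limma's moderated test with Benjamini-Hochberg adjustment over all 16755 genes (adjusted p = 0.0193). With the replicate number as a block the adjusted p was 0.134. Leaving out any of wild-type replicates 2, 3 or 4 or Cilk1-/- replicates 2, 3 or 4 also ended the call, with adjusted p between 0.0596 and 0.0694 and differences of like size.

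Ngfr in the compound mutant was listed at 3.76, 4.40 and 4.40 in replicates 1 to 3. All 3 libraries lay below the 4 wild-type libraries, with replicate 1 the lowest of the 11, and replicates 2 and 3 lay above all Cilk1-/- libraries. The difference from wild type was -0.48 (SE 0.138), which did not pass (limma adjusted p = 0.0634), and without replicate 1 it was -0.26 (adjusted p = 0.0701). Against Cilk1-/- the compound mutant was at 0.27 (SE 0.138, adjusted p = 0.264). Without replicate 1 this value was 0.48 with an adjusted p of 0.0168 in limma, under the fold limit. The protocol texts of the labels form 2 sets, the first with wild-type and Cilk1-/- replicates 1 to 3 and the second with replicate 4 of both and the compound mutant. Ngfr differed between Cilk1-/- and wild type by -0.77 within the first set and by -0.68 between the single libraries of the second. All 3 compound mutant libraries are in the second set, with 1 library each of wild type and Cilk1-/-. Differences of the compound mutant, for all genes here, thus cannot be fully told apart from the set. Within the second set, Ngfr in the compound mutant differed by -0.42 from the wild-type library and by 0.26 from the Cilk1-/- library.

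Fabp7, a fatty acid-binding protein of Schwann cell precursors and other glia, was higher in every mutant library than in every wild-type library. It lies on chromosome 10, at 57784881 to 57788450 on the plus strand, with 3 exons. Wild-type libraries were at 1.36, 1.47, 1.63 and 1.23, Cilk1-/- libraries at 2.45, 2.10, 2.09 and 2.18, and compound mutant libraries at 3.01, 1.90 and 1.89. Thus the lowest mutant library lay above the highest wild-type library, and both mutants were separate from wild type. Cilk1-/- exceeded wild type by 0.78 on the log2(value + 1) scale (SE 0.222, 95% interval 0.29 to 1.27, 1.72 times on that scale), but this did not pass the test (limma adjusted p = 0.0893, or 0.207 with the replicate block). Because 1 is added to each value, differences of low genes are understated and reach the fold limit less easily. The means of the values turned back from the log2 scale were 3.63 and 1.70, a ratio of 2.14, and with a pseudocount of 0.1 the difference was 1.06 (adjusted p = 0.0682). In the fit without compound mutant replicate 1, whose spread is shared by the comparison, the same difference passed (adjusted p = 0.00600). The value was 0.73 within the first protocol set and 0.94 between the single libraries of the second. The paper, which used edgeR on counts with its own threshold, lists Fabp7 as raised in both mutants.

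Against wild type, Fabp7 in the compound mutant was at 0.84 (SE 0.239, 1.79 times on that scale, limma adjusted p = 0.0606), and without replicate 1 at 0.47 (adjusted p = 0.0592). With a pseudocount of 0.1 it was 1.12 and passed (adjusted p = 0.0464). Hence the size of this difference depended on replicate 1, by over 1.5 times, while its direction did not. Against the single wild-type library of the second protocol set, the Fabp7 difference was 1.03. The compound mutant and Cilk1-/- differed by 0.06 in Fabp7, with a 95% interval of -0.47 to 0.59, so a difference near the fold limit cannot be told from none.

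Sox10 and Foxd3 are the transcription factors among the 7. Sox10, on chromosome 15 at 79154908 to 79165240 on the minus strand with 5 exons, is needed for all peripheral glia. It was listed at 1.85, 1.79, 1.78 and 1.77 in wild type, at 2.16, 2.01, 2.03 and 1.87 in Cilk1-/- and at 2.92, 2.15 and 1.72 in the compound mutant. The Cilk1-/- libraries lay just above the wild-type libraries without overlap, whereas the compound mutant covered both ranges. The differences from wild type were 0.22 (SE 0.198, limma adjusted p = 0.572) in Cilk1-/- and 0.47 (SE 0.213, adjusted p = 0.188) in the compound mutant. Without compound mutant replicate 1 the latter was 0.14 (adjusted p = 0.489), and without compound mutant replicate 3, the lowest library for Sox10, it was 0.74 and passed (adjusted p = 0.0315).

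Foxd3, which acts in the neural crest and in glial precursors, is a gene of 1 exon on chromosome 4, at 99656299 to 99658622 on the plus strand. Its values were 0.90, 0.84, 0.54 and 0.79 in wild type, 0.88, 0.85, 1.19 and 0.87 in Cilk1-/- and 1.31, 0.76 and 0.74 in the compound mutant. All genotypes overlapped, with a high library in each mutant. The differences from wild type were 0.18 (SE 0.137, limma adjusted p = 0.498) and 0.17 (SE 0.149, adjusted p = 0.478), and the latter was -0.01 without compound mutant replicate 1.

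Erbb3, the neuregulin receptor of the lineage, has 28 exons on chromosome 10, at 128567523 to 128589652 on the minus strand. It was at 3.17, 3.21, 3.07 and 3.11 in wild type, at 3.22, 3.26, 3.39 and 3.30 in Cilk1-/- and at 3.85, 3.07 and 3.29 in the compound mutant. As with Sox10, Cilk1-/- lay above wild type without overlap but by little. The difference was 0.15 (SE 0.133, 95% interval -0.14 to 0.45, limma adjusted p = 0.562), and that of the compound mutant was 0.27 (SE 0.144, adjusted p = 0.260), or 0.04 without replicate 1.

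Gfra3, the co-receptor that binds artemin and signals through Ret, was between 1.0 and 1.5 in wild type, between 1.16 and 1.32 in Cilk1-/- and at 1.92, 1.14 and 1.08 in the compound mutant. Cdh19, a cadherin found in Schwann cell precursors and encoded on chromosome 1 at 110888326 to 110977584 on the minus strand with 12 exons, was between 0.44 and 0.60 in wild type, between 0.54 and 0.63 in Cilk1-/- and at 0.91, 0.44 and 0.47 in the compound mutant. For both genes the Cilk1-/- libraries overlapped with wild type, and compound mutant replicates 2 and 3 lay within or next to the wild-type range. In Cilk1-/- the differences from wild type were 0.05 for Gfra3 (95% interval -0.34 to 0.43) and 0.05 for Cdh19 (95% interval -0.16 to 0.26). They were 0.18 (limma adjusted p = 0.560) and 0.08 (adjusted p = 0.662), in the compound mutant, and -0.09 and -0.08 without its replicate 1.

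Over the 7 genes, 1 passed in Cilk1-/- against wild type, beside 0.370% of all genes, and that gene, Ngfr, was lower. In the compound mutant against wild type 0 of 7 passed, beside 1.25% of all genes, and against Cilk1-/- 0 of 7, beside 0.543%. With an unadjusted p under 0.05 in limma and the same fold limit the counts were 2 (Ngfr and Fabp7), 1 (Fabp7) and 0, beside 0.752%, 2.98% and 2.09% of all genes. Without the fold limit they were 2, 2 (Ngfr and Fabp7 in both) and 0, beside 20.7%, 26.7% and 23.2% of all genes, and the counts at an unadjusted p given below for other lists are to be read against these shares. With the replicate block, 0 of 7 passed in each comparison. Libraries did not overlap between Cilk1-/- and wild type for 4 of 7 genes (Sox10, Erbb3, Ngfr and Fabp7), beside 20.9% of all genes. For the compound mutant this held for 2 of 7 against wild type (Ngfr and Fabp7), beside 18.0%, and for 0 of 7 against Cilk1-/-, beside 17.0%. The mean was higher in the first-named genotype for 6 of 7 genes in each comparison, all except Ngfr against wild type and all except Foxd3 against Cilk1-/-. The median difference over the 7 was 0.154, 0.182 and 0.112, against 0.0032, -0.0016 and 0.0028 over all genes. Without compound mutant replicate 1 the median against wild type was -0.0136 and that against Cilk1-/- was -0.127, with 3 of 7 and 1 of 7 means higher.

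**Figure D2:**
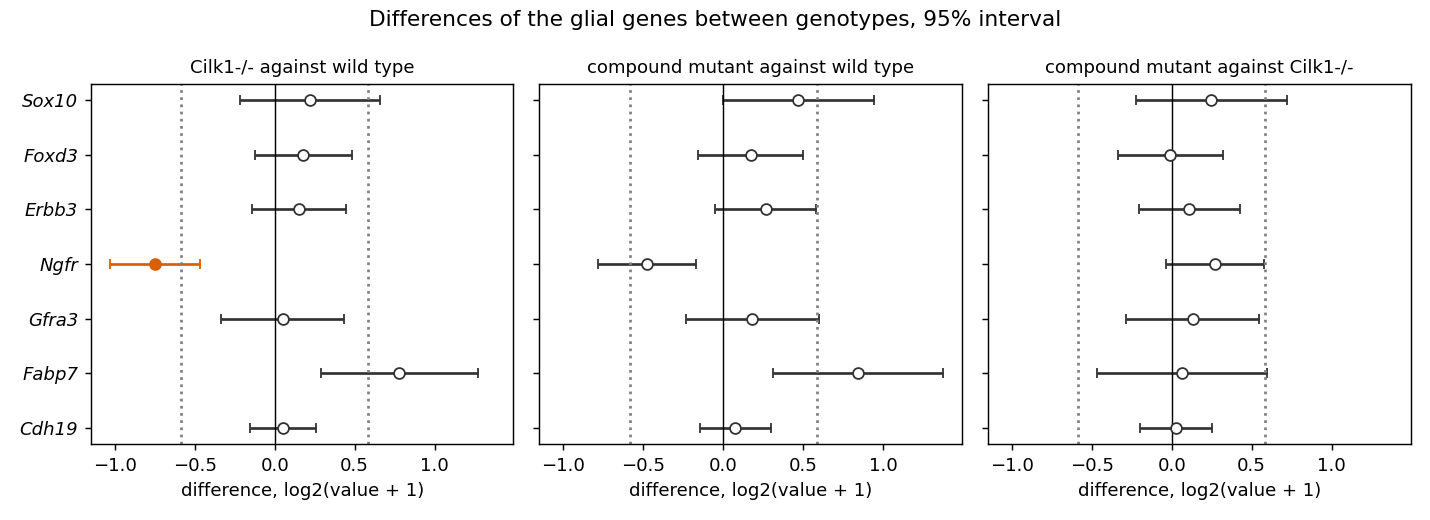
Difference between genotypes on the log2(value + 1) scale (horizontal axis) with its 95% interval for the 7 genes in the 3 comparisons, from the limma fit over 11 libraries, where the filled point passed the call and dotted lines mark a fold of 1.5. Ngfr at -0.75 in Cilk1-/- is the only filled point, and the interval of Fabp7 in Cilk1-/- against wild type, 0.29 to 1.27, does not cross 0.

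An exact permutation test over libraries was run for each of the 7 genes in each comparison, 21 tests in all. For Sox10, Erbb3, Ngfr and Fabp7 in Cilk1-/- against wild type, the two-sided exact p was 0.0286, the smallest that 4 against 4 libraries can give, and 0.15 after Benjamini-Hochberg adjustment over the 21 tests. Where genotypes were swapped only within replicate numbers, the exact p of these genes was 0.125, again the smallest possible. For Ngfr and Fabp7 in the compound mutant against wild type it was 0.0571, the smallest for 3 against 4 libraries, so this design cannot reach 0.05.

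Fabp7 and Ngfr were also set against Sox10 in the same library, a step chosen after the values had been seen. Fabp7 minus Sox10 was -0.49, -0.31, -0.15 and -0.53 in wild-type libraries, 0.29, 0.09, 0.06 and 0.30 in Cilk1-/- libraries and 0.09, -0.25 and 0.17 in compound mutant libraries. Fabp7 thus stood below Sox10 in all 4 wild-type libraries and above it in all 4 Cilk1-/- libraries. Ngfr exceeded Sox10 by 2.81 to 3.0 in wild type, by 1.66 to 2.06 in Cilk1-/- and by 0.84, 2.25 and 2.68 in the compound mutant, without overlap between wild type and either mutant. Erbb3 exceeded Sox10 by 1.29 to 1.43 in wild type and by 1.06 to 1.43 in Cilk1-/-, which overlapped.

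**Figure D3:**
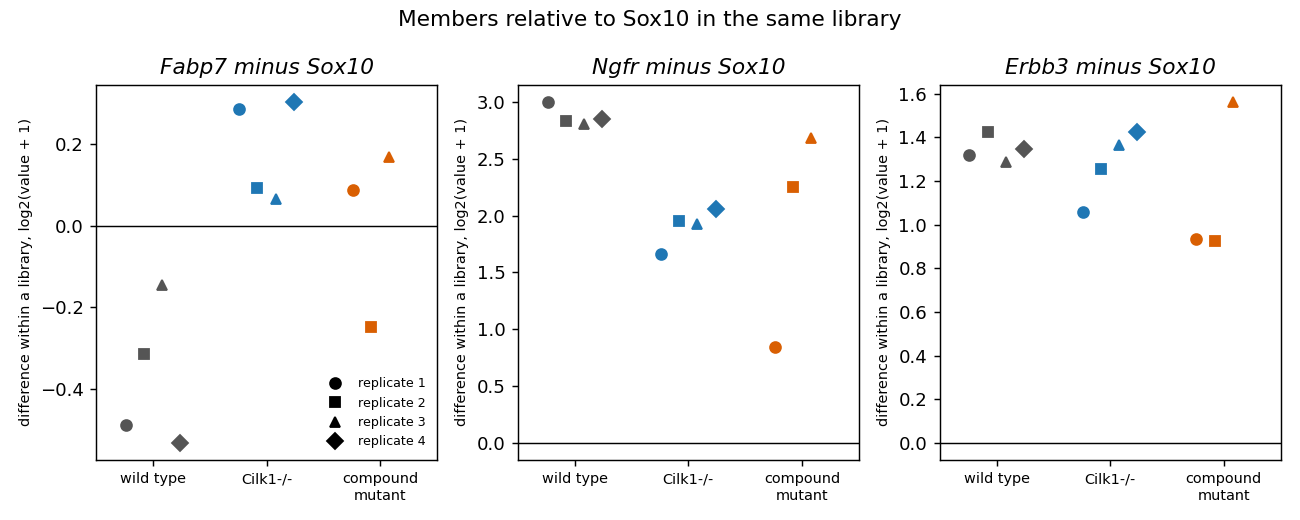
Fabp7, Ngfr and Erbb3 minus Sox10 within each of 11 libraries (vertical axes, difference of log2(value + 1), scales differ between panels), by genotype and with marker shapes for the replicate number. Fabp7 minus Sox10 is negative in the 4 wild-type libraries, from -0.53 to -0.15, and positive in the 4 Cilk1-/- libraries, from 0.06 to 0.30.

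Of 27 other genes of the Schwann cell lineage, 26 were listed. In Cilk1-/- against wild type 0 of them passed in limma, with 3 at an unadjusted p under 0.05, and in the compound mutant against Cilk1-/- 0 passed, with 5. Against wild type, 1 passed in the compound mutant and was higher. This was Ednrb, the endothelin receptor of neural crest cells and of the glial and pigment cells derived from them, with a difference of 0.60 (SE 0.141, limma adjusted p = 0.0344, or 0.144 with the replicate block). Its values were 2.83, 2.41, 2.60 and 2.49 in wild type, 2.93, 3.19, 3.07 and 3.10 in Cilk1-/- and 3.53, 3.02 and 2.99 in the compound mutant. Ednrb thus resembled Fabp7 in that both mutants lay above wild type without overlap, and without compound mutant replicate 1 its difference was 0.42 (adjusted p = 0.0585). The most abundant of the 26 in wild type, Serpine2 at 6.25 and Tfap2b at 5.52, are not specific to glia, and Serpine2 differed by 0.01 and 0.02 from wild type in the mutants. Over the 26, the median difference from wild type was 0.0504 for Cilk1-/-, and for the compound mutant it was 0.130, or 0.0303 without replicate 1.

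Among the markers, Mbp, S100b and Dhh were all highest in compound mutant replicate 1. S100b, a calcium-binding protein of glia, was between 1.37 and 2.12 in wild type, between 1.55 and 2.02 in Cilk1-/- and at 3.09, 1.57 and 1.64 in the compound mutant. Its Cilk1-/- libraries overlapped with wild type. Mbp was at 2.96, 2.25 and 2.52 in the compound mutant. Its Cilk1-/- libraries, at 2.282 to 2.366, lay just above the wild-type libraries, at 2.077 to 2.281. Dhh was at 0.79, 0.43 and 0.39 in the compound mutant, between 0.19 and 0.50 in wild type and between 0.19 and 0.52 in Cilk1-/-, which overlapped. Egr2 had another pattern, with 1.02 to 1.68 in wild type, 0.73 to 1.19 in Cilk1-/- and its highest value, 2.16, in compound mutant replicate 2. Compound mutant replicate 1 was the highest for 6 of the 7 genes, the lowest for Ngfr and the highest for 16 of the 26 other Schwann lineage genes, beside 22.9% of all genes.

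The ligands and partners of the receptors were examined next. In the neuregulin family 6 of 7 genes were listed (Erbb4 was not), and 0 passed in limma in any comparison, with 1, 2 and 2 at an unadjusted p under 0.05 in Cilk1-/- and the compound mutant against wild type and between the mutants. Erbb2, the partner of Erbb3, was at 4.84 ± 0.0868 (SD, n = 4) in wild type and differed by -0.05 in Cilk1-/- and by 0.04 in the compound mutant. Nrg1, the axonal ligand of Erbb3, was at 1.92 in compound mutant replicate 1 and between 0.23 and 0.61 in the other 10 libraries. Egfr was lower in the compound mutant by -0.43 (limma adjusted p = 0.00697), under the fold limit. Of 8 genes of the GDNF family, 0 passed in limma, with 1, 2 and 1 at an unadjusted p under 0.05 in the same order. The most abundant in wild type were Gfra2 at 3.50 and Gfra4 at 3.21, and Artn, the ligand of Gfra3, was between 1.69 and 1.91 in wild type, between 1.71 and 1.91 in Cilk1-/- and at 1.40, 1.68 and 1.78 in the compound mutant. Of 8 genes of the neurotrophins and their receptors, 0 passed, with 1, 3 and 1 at an unadjusted p under 0.05. Ntrk2 at 4.31 and Sort1 at 3.61, the most abundant of this list in wild type, differed in Cilk1-/- by 0.36 and 0.05 (adjusted p = 0.139 and 0.858).

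Markers of other cells were read beside these results. Of 16 neuron genes 15 were listed, and their summed value, turned back from the log2 scale, was between 59.3 and 73.9 in wild type, between 72.8 and 88.6 in Cilk1-/- and between 86.2 and 315.2 in the compound mutant, where 315.2 was replicate 1. At an unadjusted p under 0.05 in limma there were 1 of the 15 in Cilk1-/- and 11 of the 15 in the compound mutant against wild type, and 4 between the mutants. Pou4f1, a factor of sensory neuron cell bodies, was near 0 in all libraries (0.03 to 0.15), and Tubb3, a neuronal tubulin, and Isl1, a factor of sensory and motor neurons, passed in the compound mutant against wild type at 1.5 (limma adjusted p = 0.0268) and 0.95 (adjusted p = 0.0190). With the replicate block these were 0.127 and 0.0971. Without compound mutant replicate 1 the differences were 1.03 and 0.68 and passed (adjusted p = 0.0239 and 0.0120), and Nefm, a neurofilament gene, then also passed in Cilk1-/- against wild type (0.69, adjusted p = 0.0493). The most abundant neuron genes in wild type were Gap43, a growth cone protein, at 4.62 and Uchl1 at 4.25, the former differing by 0.09 in Cilk1-/-. Over the 15 genes the median difference from wild type was 0.365 for Cilk1-/-, and for the compound mutant it was 0.835, or 0.335 without replicate 1. Of the listed genes, 13 of 15 were highest in compound mutant replicate 1. The part of nerve content in the differences of the glial genes was not tested.

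Of 7 melanocyte genes, a pigment cell type that also descends from the neural crest, 4 were listed, without Tyr, Tyrp1 and Mlana. Their summed value was between 9.05 and 12 in wild type, between 11.6 and 16.1 in Cilk1-/- and between 12.2 and 23.6 in the compound mutant, and the most abundant were Kit at 3.11 and Mitf at 1.57 in wild type. Most of this sum was Kit, which is not specific to pigment cells. Over the 4 genes, the median difference from the wild-type mean was -0.0471, 0.0301 and 0.681 in compound mutant replicates 1 to 3. In limma 0 of the 4 passed, with 1, 1 and 0 at an unadjusted p under 0.05. Markers of glia of the central nervous system summed to between 14.5 and 18.4 in wild type and between 17.0 and 18.4 in Cilk1-/-, and to between 9.85 and 15.6 in the compound mutant. Most of this sum was Slc1a3. Over the listed genes, the median difference from the wild-type mean was 0.142, 0.0590 and 0.0157 in compound mutant replicates 1 to 3. The mean differences were 0.308, 0.0447 and -0.143. Slc1a3 at 3.96 and Gfap at 0.46 in wild type were the most abundant, Olig2 was not listed, and 0 passed, with 2 at an unadjusted p under 0.05 in each comparison. The 12 dental mesenchyme genes summed to between 895.2 and 979.7 in wild type, between 800.8 and 912.1 in Cilk1-/- and between 555.3 and 932.1 in the compound mutant, with the lowest sum in replicate 1. In limma 0 of the 12 passed, with 3, 6 and 1 at an unadjusted p under 0.05, and their median difference from wild type was -0.178 in Cilk1-/-. The 9 dental epithelium genes summed to between 901.8 and 1151 in wild type and between 982.8 and 1243 in Cilk1-/-. In compound mutant replicates 1 to 3 the sums were 537.6, 760.8 and 1261. Of these 9 genes, Krt15 was higher in Cilk1-/- by 0.63 (limma adjusted p = 0.0436, or 0.0846 with the replicate block) and lower in the compound mutant than in Cilk1-/- by -1.06 (adjusted p = 0.00933, or 0.0459 with the block). The muscle genes Actc1, Acta1 and Myh3 were lower in the compound mutant than in Cilk1-/-, by -2.35, -1.71 and -1.52 (limma adjusted p = 0.0223, 0.0417 and 0.0318). With the replicate block these were 0.181, 0.217 and 0.192, so none passed, and without compound mutant replicate 1 they were 0.0443, 0.0856 and 0.0599. The 9 muscle genes listed summed to between 9.90 and 29.5 in wild type, between 19.9 and 52.5 in Cilk1-/- and between 7.04 and 9.84 in the compound mutant, with 5, 2 and 7 at an unadjusted p under 0.05. The lists of endothelium, macrophages and erythroid cells had 0 genes that passed in any comparison in limma, and between 0 and 2 at an unadjusted p under 0.05 in each.

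Some genes of olfactory neurons, a tissue outside the tooth germ, were also high in compound mutant replicate 1. The 7 listed of 8 summed to 59.7 in that library and to between 17.9 and 24.0 in the other 10, and 5 of the 7 were highest there. Much of the sum in that library came from Lhx2. Over the 7 genes, the mean difference from the wild-type mean was 1.11 there, but the median was 0.331. Lhx2, a transcription factor of olfactory and other neural progenitors, was at 4.94 in that library and at most 0.94 elsewhere, and Omp, a protein of mature olfactory neurons, at 1.76 against at most 0.51. In the limma fit over 11 libraries 0 of the 7 passed, with 1, 1 and 2 at an unadjusted p under 0.05. Without compound mutant replicate 1, Lhx2 passed as higher in the compound mutant than in wild type (0.59, adjusted p = 0.0394) and than in Cilk1-/- (0.64, adjusted p = 0.0439). The most abundant of the list in wild type were Adcy3 at 3.52 and Gng8 at 2.80. The part of cell makeup in the Ngfr and Fabp7 results was not tested.

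**Figure D4:**
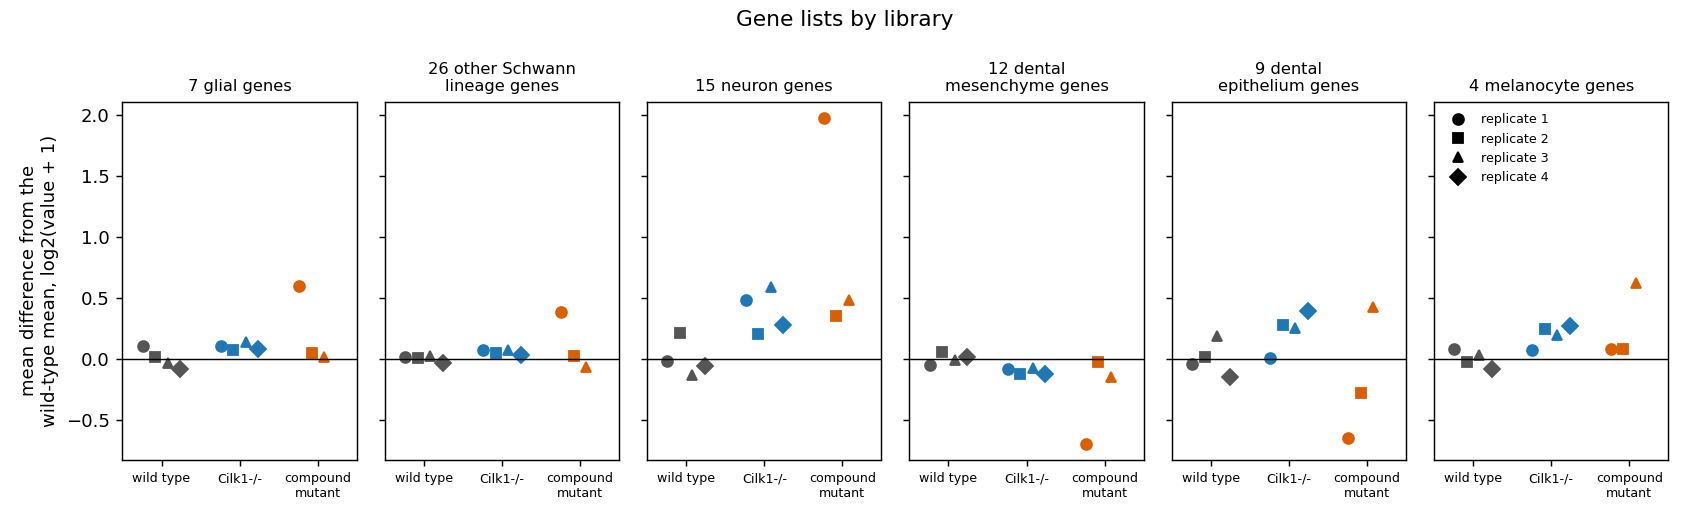
Mean difference from the wild-type mean (vertical axis, log2(value + 1)) over the genes of 6 lists in each of 11 libraries, by genotype and with marker shapes for the replicate number. Compound mutant replicate 1 is the highest library for the 7 glial genes, the 26 other Schwann lineage genes and the 15 neuron genes, where it reaches 1.97, and the lowest for the dental mesenchyme genes at -0.70.

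The genes whose pattern over the 11 libraries was most like the mean of the 7, each centred and scaled, were Kcnj2, Traf3ip1, Sema3c, Adra1d, Rsph9, Abca3, Mast1, Rap1gap, Syt5 and Celf3, with Pearson correlations from 0.982 down to 0.958. This likeness was again set largely by compound mutant replicate 1, where the mean of the 7 was 1.91 against -0.62 to 0.24 elsewhere. Without that library, over 10 libraries, the same genes had correlations between 0.655 and 0.891, and among the 10 genes then most alike, led by Vstm2a at 0.916, Kcnj2 at 0.891 was the only gene of the first list.

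RefSeq promoter windows of 300 bases (GRCm38.p6) were at hand for Foxd3, Ngfr and Fabp7. The letters ACAAAG and ACAATG, cores bound by Sox factors, were searched on both strands and were in 0 of these 3 windows, while 28.4% of 32544 windows held at least 1 of them. This says only that these letters are not in these windows.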

How the data were processed

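RNA-seq of maxillary molar germs from 4 wild-type, 4 Cilk1-/- and 3 compound mutant samples was used. Reads were mapped to mm10 with HISAT2 2.0.5 and counted with featureCounts 1.5.0-p3 by the authors (names and versions from the submitters' processing notes), who computed FPKM and tested with edgeR. Strandedness is not given in the sources used here. The values the authors deposited are log2 values of 16755 genes, taken as log2(value + 1) with a pseudocount of 1. In 257 genes a library is below 0, which log2(value + 1) alone cannot give, so a further step is likely, and counts, depth and counting intervals could not be had.

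The log2 values were fitted in R 4.3.3 with limma 3.58.1 (lmFit, eBayes with trend and robust), in 1 model over 11 libraries without covariates, since edgeR needs counts. Adjustment was by Benjamini-Hochberg over all 16755 genes, and a gene passed at an adjusted p under 0.05 and a fold of at least 1.5. No filter was applied. The fitted step was tested on simulated data with independent libraries, so that test does not cover the dependence between same-numbered libraries. Exact permutation tests used scipy 1.17.1. Figures were drawn with matplotlib 3.10.9 in Python 3.11.15. Nothing in the labels states that replicates came from separate litters, so p-values measure only the spread between these samples.

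The members and lists were chosen with earlier results of these data known. Named genes are the 7 members, the genes of each list that passed or had the 2 highest wild-type means, and the 10 genes most correlated with the members' mean (mean of at least 1). Mbp, S100b, Dhh and Egr2 are among the markers set for the label, and some markers are not reported here. Nrg1, Artn, Pou4f1, Nefm, Lhx2 and Omp, and the libraries they are compared in, were singled out after their values were seen. Gene positions are from GENCODE annotation of GRCm38 (mm10).

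The replicate block was checked over all genes. Same-numbered wild-type and Cilk1-/- libraries had correlations of -0.741, -0.892, -0.848 and -0.792 in their deviations, so they were not taken as pairs, yet are not independent, and the block is given beside the calls it ends. Alternatives were the block, other samples, weights, scaling, pseudocount, a mean filter, a term for protocol set and each library left out. The likeness and the list counts without compound mutant replicate 1 were added after seeing the data. Columns of per-sample values that matched no sample numbered 0.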

Additional observations from a re-analysis of the deposited data

Results flagged for a closer look

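Among 14 groups of 4 libraries tested, each of the 7 genes in wild type and in Cilk1-/-, 2 held a library far from the others by Dixon's criterion, which chance gives in about 1 of 20 groups. Foxd3 in Cilk1-/- replicate 3 was at 1.19, with the other 3 libraries between 0.85 and 0.88. Ngfr in wild-type replicate 1 was at 4.85, with the other 3 between 4.58 and 4.62, and without this library the difference of Ngfr from Cilk1-/- was -0.69 and passed (limma adjusted p = 0.0490).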

How the results depend on the processing

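Depth is unknown and the arms hold 3 or 4 libraries, so a difference under about the 95% intervals could not be seen. The number of the 7 genes that passed in Cilk1-/- against wild type, 1 as reported, was 0 with the replicate block and 0 with the compound mutant libraries placed in block 4. It was 2 when only these genotypes were fitted, 2 with library weights, 2 with an unadjusted p, and between 0 and 2 when single libraries were left out (0 without wild-type replicates 2, 3 or 4 or Cilk1-/- replicates 2, 3 or 4, and 2 without compound mutant replicate 1). In the compound mutant against wild type, 0 as reported, it was 1 with a pseudocount of 0.1 (Fabp7), 1 with an unadjusted p, and between 0 and 2 without single libraries (1 without compound mutant replicate 2 and 2 without compound mutant replicate 3). Against Cilk1-/- it was 0 in every alternative. The replicate block ended no call of the 7 genes other than Ngfr's, whose direction was the same in all alternatives, as were those of Fabp7, Sox10 and Erbb3 against wild type. Over all genes, 62, 209 and 91 passed in the 3 comparisons, and 4, 26 and 2 with the block.

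Signs turned for differences that did not pass. Gfra3 in Cilk1-/- against wild type was -0.0102 after quantile normalisation and between -0.0175 and 0.15 without single libraries. In the compound mutant against wild type, Foxd3 was between -0.0136 and 0.27, Gfra3 between -0.0884 and 0.33 and Cdh19 between -0.0768 and 0.16. In the compound mutant against Cilk1-/-, Foxd3 was 0.0191 with the compound mutant in block 4 and 0.0191 with the protocol set as a term, and Cdh19 was -0.0123 with library weights. Without single libraries, Sox10 was between -0.0808 and 0.52, Foxd3 between -0.194 and 0.0906, Erbb3 between -0.11 and 0.28, Gfra3 between -0.14 and 0.28, Fabp7 between -0.31 and 0.25 and Cdh19 between -0.13 and 0.11. The negative ends of Sox10, Erbb3, Gfra3, Fabp7 and Cdh19 in this comparison came without compound mutant replicate 1. The cause of the other changes was not tested. Foxd3 and Cdh19 have no value under the filter on a mean of at least 1.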
